A study of Mus musculus with 2 samples.

Results

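Cytosolic ribosomal proteins are the protein subunits of the ribosome that translates nuclear-encoded mRNA. Their genes were taken here as the protein-coding rows of the deposited expression table whose symbol begins with Rpl or Rps and a digit, or is Rpsa, Rplp0, Rplp1, Rplp2 or Fau. Rps6 kinases, Rps19bp1 and symbols with -ps were left out. This gave 86 genes of 41592 rows. Of these, 32 encode proteins of the small (40S) subunit, 46 encode proteins of the large (60S) subunit, and 8 are paralogues, copies that resemble a core gene.

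Spleen and lymph node CD4+ T cells gave the RNA. The donors were C57BL/6 mice, 6 to 8 weeks old, all of the genotype Foxp3 ΔCNS1-Cre-R26-YFP. These mice carry Cre driven by Foxp3 regulatory DNA without the CNS1 element and a YFP reporter at Rosa26, so that YFP stays on in a cell, and in its progeny, once Cre was active. Both sorted populations were YFP-positive. The Thy1.1-negative population is called the Thy1.1- library and the Thy1.1-positive population the Thy1.1+ library, and sort purity was typically above 97%. The series names tTreg cells, regulatory T cells of thymic origin, and exFoxp3 precursors as its populations, but its text gives both the same markers, so the populations are named by the sample titles. The number of mice per sort is not given in the sources used here. With 1 library per population, differences have no replicate check and no p-value is given.

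Depth was alike, at 18536339 counted reads in the Thy1.1- library and 18600581 in the Thy1.1+ library. T cell and Treg markers were abundant in both, with summed levels of 1979 and 1444 FPKM over 5 T cell markers and 1741 and 1908 FPKM over 4 Treg markers, Thy1.1-negative first. FPKM is the number of fragments scaled to gene length and to the number of counted reads. All 5 T cell markers, Thy1 included, stood higher in the Thy1.1- library, as did 1 of the 4 Treg markers. Thy1, the gene named in the sort, was thus not higher in the library called Thy1.1+. The libraries were assigned by column name, and that assignment was not tested. The 4 B cell markers summed to 2.27 and 2.55 FPKM and the 3 myeloid markers to 4.68 and 0.553 FPKM. The 2 CD8 markers summed to 4.78 and 4.49 FPKM, and the 2 natural killer markers to 2.08 and 0.663 FPKM. The 2 erythroid markers summed to 1.29 and 3.41 FPKM. The 3 plasma cell markers summed to 145 and 164 FPKM, mostly from Xbp1, and the 2 stromal markers to 86.6 and 64.2 FPKM, mostly from Pecam1. All 6 proliferation markers stood higher in the Thy1.1- library, at a summed level of 153 against 24.5 FPKM.

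Ribosomal protein genes are among the most transcribed genes of any cell, and the subunits are needed in equal numbers. Most of their mRNAs begin with a terminal oligopyrimidine tract, or TOP, a C followed by a run of C and T, through which mTOR and the binding protein Larp1 control their translation. In T cells, activation through the antigen receptor drives ribosome production, in part through Myc.

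Of the 86 genes, 84 had a mean level of at least 1 FPKM and were compared. Their median level was 876 FPKM in the Thy1.1- and 997 FPKM in the Thy1.1+ library. Genes of this group held 51 of the 100 highest places in the Thy1.1- library and 56 in the Thy1.1+ library. At least 1000 FPKM was reached by 34 and 42 of them. Together they made up 12.1% of all summed FPKM in the Thy1.1- library and 13.8% in the Thy1.1+ library. In counted reads, they held 1046461 reads or 5.65% (95% exact Clopper-Pearson interval 5.63 to 5.66) and 1182573 reads or 6.36% (6.35 to 6.37). The group's share was thus smaller in the Thy1.1- library, and the gap is wider than counting error. Such intervals cover counting error only, and reads that share a PCR origin are not independent. In bulk samples, fewer cells of a type and less RNA per cell cannot be told apart.

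**Figure D1:**
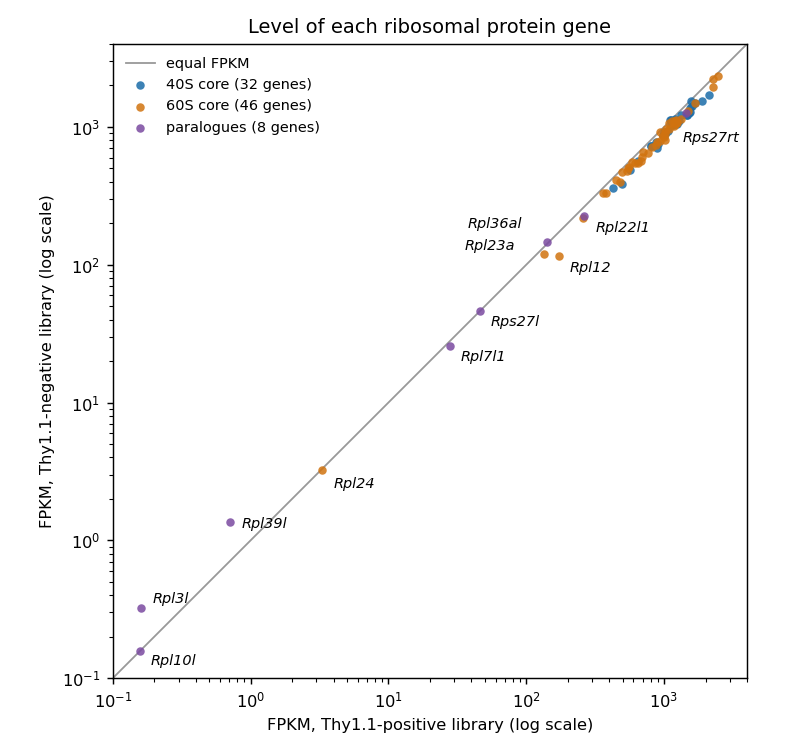
Level of each of the 86 ribosomal protein genes in FPKM, Thy1.1-positive library on the horizontal and Thy1.1-negative library on the vertical axis, both logarithmic. The 40S and 60S core genes crowd just below the line of equal FPKM, while Rpl24 at 3.22 and 3.31 FPKM lies far below all other core genes and the paralogues spread over the whole range.

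As deposited, 80 of the 84 genes had a lower value in the Thy1.1- library and 4 a higher value, where 44.9% of all 12820 genes tested lay below 0 and 55.1% above. The difference throughout is that of log2(FPKM + 1), Thy1.1-negative minus Thy1.1-positive. Its median was -0.18 over the group and 0.03 over all genes, so the group stood -0.21 from the median gene. Below the median gene were 82 of 84, where the share of all genes is 50.0% by construction. None of the 84 passed 2-fold in either direction, against 1.15% of all genes lower and 1.93% higher, and none was 1.5-fold lower, against 3.85%. The pattern was a small displacement of nearly every member and not a large change of a few.

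The sign of that displacement depended on the scaling. Each scaling multiplies 1 library by a constant and so moves the members and the median gene almost alike, which leaves the distance between them nearly fixed by construction. Scaled by the upper quartile of values above 0, the median of all genes moved by 0.23 to 0.26. The group's median then became 0.08, with 15 of 84 members below 0 and 80 of 84 below the median gene, at a distance of -0.18. With equal FPKM sums, with the median difference centred on 0, or with equal sums without the 100 highest genes, 81 to 83 members lay below 0. The distance to the median gene was -0.21 in each of these. All further values are as deposited, and positions are also given against the median gene because a common factor hardly moves them.

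**Figure D2:**
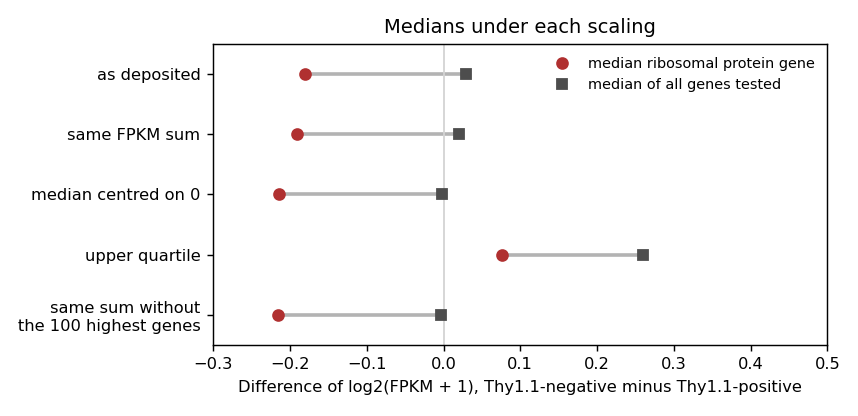
Median difference of log2(FPKM + 1), Thy1.1-negative minus Thy1.1-positive, of the 84 measured ribosomal protein genes (circles) and of all 12820 genes tested (squares) under 5 scalings. The circles lie left of the squares in every row, and they cross 0 to 0.08 with the upper quartile.

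Both subunits behaved alike. The 32 genes of the 40S core had a median difference of -0.18 and the 46 genes of the 60S core one of -0.18, and all 78 stood below the median gene. Summed levels were 32834 against 37437 FPKM for the 40S genes, a ratio of 0.877, and 38353 against 42881 FPKM for the 60S genes, a ratio of 0.894. The summed FPKM of all other genes tested had a ratio of 1.03. The median ratio of the core genes was 0.882. Counting intervals of the ratio lay wholly below 1 for 72 of the 78 core genes, against 19.1% of all genes tested and 42.8% of those with a mean of at least 100 FPKM. None lay wholly above 1, against 27.3% of all genes. These counts hold for the values as deposited, because a common factor moves every ratio relative to 1.

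**Figure D3:**
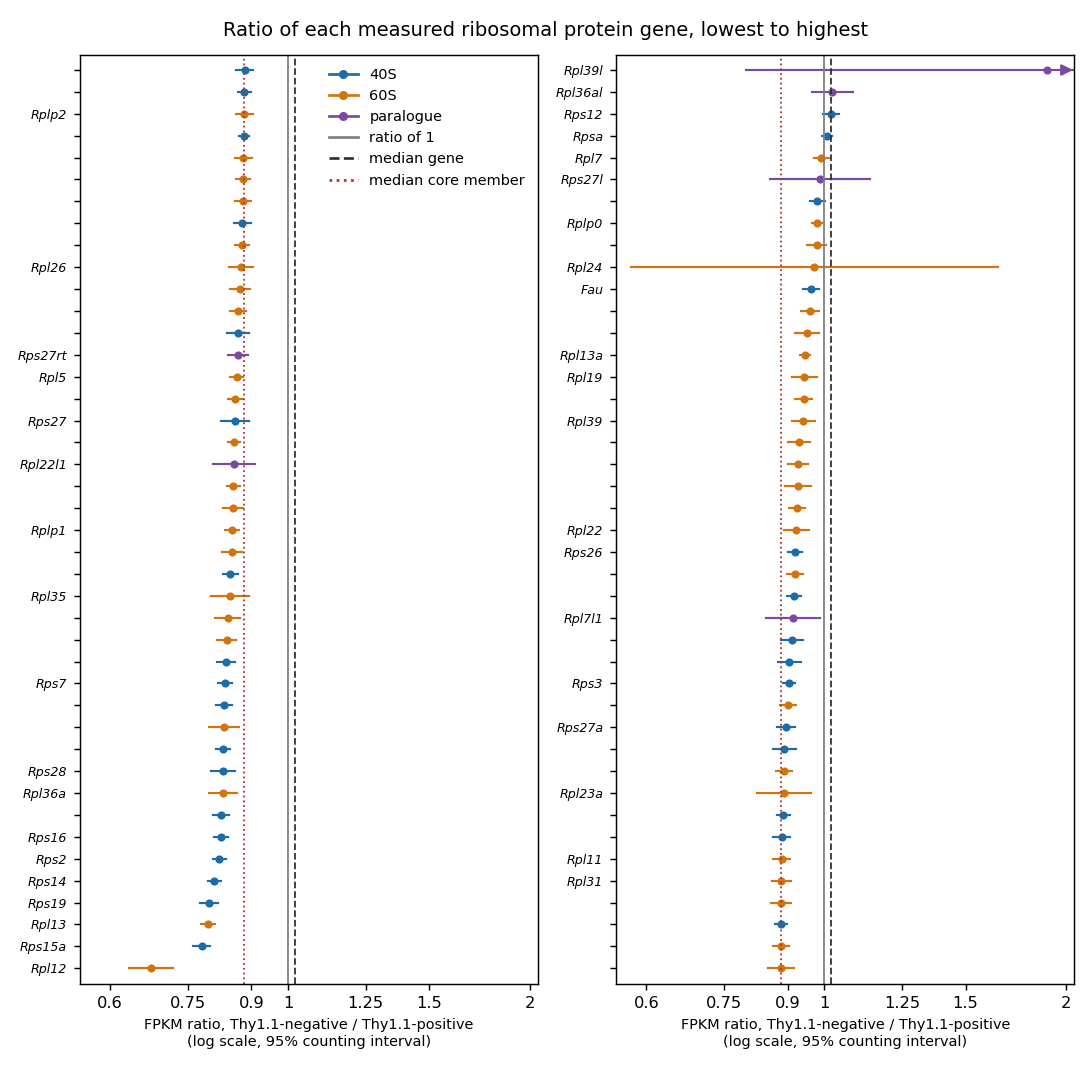
Ratio of FPKM, Thy1.1-negative over Thy1.1-positive, of the 84 measured genes on a logarithmic axis, ordered from lowest at the bottom left to highest at the top right, with 95% counting intervals as bars and names for the genes described in the text. Most points gather around the dotted line at 0.882, the median core gene, left of 1 as deposited; Rpl12 is lowest at 0.674, and the interval of Rpl39l, up to 4.83, runs past the right edge.

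Of the 78 core genes, 62 or 79.5% lay within 0.1 of their own median difference. That band held 19.8% of all genes tested, but it is centred on the members. Of the 1035 other genes with a mean of at least 100 FPKM, 31.6% lay within 0.1 of their own median. The middle of the distribution ran from -0.23 to -0.12 between the quartiles. The SD over core genes was 0.09, while the median half-width of a gene's own counting interval was 0.04 on the log2 scale. The interval excluded the core median ratio from below for 25 genes and from above for 22, against 7.28% and 50.3% of all genes. Members thus differed among themselves by more than counting error. Across the 78 genes the difference had a Pearson r of 0.02 with log2 level, -0.02 with log2 length and -0.07 with the GC content of the transcripts. These describe 1 pair of libraries, and the genes share both.

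At the low end stood Rpl12, Rps15a, Rpl13, Rps19 and Rps14. Rpl12, at the base of the stalk of the large subunit, had 116 FPKM in the Thy1.1- and 172 FPKM in the Thy1.1+ library, a ratio of 0.674 (0.634 to 0.718). Its difference of -0.56 was the lowest of the group and stood apart from the next. Rpl12 is also 1 of the less abundant core genes, from 1681 and 2501 reads, and its annotated span overlaps Lrsam1 on the other strand. The spans of Rpl13 and Rps14 overlap Gm20388 and Ndst1, and the part of these overlaps in the values was not tested. Rps15a had 384 against 492 FPKM, a ratio of 0.781 (0.762 to 0.800). Rpl13 had 802 against 1009 FPKM, a ratio of 0.795 (0.779 to 0.812). Rps19, the gene first linked to the inherited anaemia named after Diamond and Blackfan, had 709 against 889 FPKM, a ratio of 0.797 (0.777 to 0.818). Rps14, lost in the 5q- form of marrow failure, had 1716 against 2120 FPKM, a ratio of 0.810 (0.794 to 0.825). With the upper quartile, which raises all abundant genes alike, these differences were -0.31, -0.10, -0.07, -0.07 and -0.05.

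At the high end of the core, Rps12, Rpsa and Rpl7 were level between the libraries as deposited. Rps12, a protein of the small subunit head, had 1120 against 1100 FPKM, a ratio of 1.02 (0.995 to 1.04). Rpsa, which binds the mRNA exit side and is also known as a laminin receptor, had 1123 against 1115 FPKM, a ratio of 1.01 (0.993 to 1.02). Rpl7 had 919 against 928 FPKM, a ratio of 0.991 (0.970 to 1.01). Rps12 and Rpsa were the 2 core genes above 0 as deposited, at 0.03 and 0.01. Rps12 turned below 0 when the median was centred or the 100 highest genes were left out, and Rpsa did so with equal FPKM sums as well. With the upper quartile, Rps12, Rpsa and Rpl7 were all above 0, at 0.28, 0.27 and 0.24.

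Among the most abundant genes, levels parted from one another more than their ratios did. Rpl13a, a large subunit protein also known for a role outside the ribosome, had 2346 against 2480 FPKM, a ratio of 0.946 (0.932 to 0.960). Rps16 had 1552 against 1882 FPKM, a ratio of 0.825 (0.808 to 0.842). The order of levels was nearly the same in both libraries, with a Spearman rho of 0.988 across the 78 core genes. The Pearson r on the log2 scale was 0.997, but Rpl24, far below the others in both libraries, widens the range behind it. The sources used here do not give the length behind each FPKM value. The lengths implied by the recovered reads were within 1 base of the annotated mean transcript length for 39 of the 86 members. For Rpsa the values imply 1861 bases against an annotated mean of 1029, so its level is hard to set beside that of other genes. By counted reads, Rpsa was the highest member, with 38753 and 38607 reads.

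The acidic stalk of the large subunit recruits the elongation factors. Rplp0, its base, had 2231 against 2280 FPKM, a ratio of 0.979 (0.965 to 0.993). Rplp1 had 1946 against 2283 FPKM, a ratio of 0.852 (0.836 to 0.870). Rplp2 had 1070 against 1214 FPKM, a ratio of 0.882 (0.860 to 0.904). Rplp1 and Rplp2 form dimers on Rplp0, and the interval of Rplp0 did not meet those of the dimer proteins. All 4 stalk genes, Rpl12 included, were below the median gene.

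Rpl5 and Rpl11 enter the ribosome together with 5S rRNA, and outside it bind Mdm2, the ligase that degrades p53. Rpl5 had 1074 against 1246 FPKM, a ratio of 0.863 (0.847 to 0.879), and Rpl11 had 1058 against 1196 FPKM, a ratio of 0.884 (0.863 to 0.906). The intervals of this pair overlapped. Of the 4 genes listed for that axis, Mdm2 stood at 99.4 against 84.6 FPKM, with a difference of 0.23, and Mdm4 at 150 against 168 FPKM, with a difference of -0.16. Mdm4 turned above 0 with the upper quartile. None of the 4 passed 2-fold.

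The 7 proteins around the exit of the peptide tunnel had ratios from 0.847 for Rpl35 to 0.945 for Rpl19. Rpl23a, the docking site of the signal recognition particle, was the least abundant of them with 120 and 135 FPKM; the ratio was 0.890 (0.824 to 0.962). Rpl26 had a ratio of 0.874, Rpl31 of 0.884 and Rpl39 of 0.942. Rpl22, whose loss blocks the development of T cells with alpha and beta receptor chains, had 332 against 360 FPKM, a ratio of 0.923 (0.890 to 0.957). All 7 were below the median gene and, as deposited, below 0; the common factor of the upper quartile puts them above 0.

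Around the mRNA path of the small subunit, values spread from the low to the high end of the group. At the entry, Rps2 had 1213 against 1477 FPKM, a ratio of 0.821 (0.806 to 0.837), and Rps3 had 727 against 805 FPKM, a ratio of 0.903 (0.888 to 0.919). Fau, which encodes Rps30 fused to a ubiquitin-like protein, had 1150 against 1195 FPKM, a ratio of 0.962 (0.940 to 0.986). At the exit, Rps28 had a ratio of 0.830, Rps7 of 0.835 and Rps26 of 0.920, beside Rps14 and Rpsa above. Each of these named genes was below the median gene. Rps27a, a ubiquitin fusion, had 781 against 872 FPKM, a ratio of 0.896 (0.873 to 0.920).

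Rpl24, a large subunit protein, was the outlier in level, at 3.22 and 3.31 FPKM from 31 and 32 reads. The next core gene by mean level, Rpl23a, was above 100 FPKM in both libraries. The annotated span of Rpl24 overlaps Gm28037, listed at 0 in both libraries; how reads in both genes were counted is not given in the sources used here, and its part in the level was not tested. The ratio of Rpl24, 0.972, has an interval from 0.574 to 1.65, so a difference of the size seen in other members was not detectable at this depth.

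Paralogues did not share a common value. Of the 8, 6 had a mean of at least 1 FPKM, with a median difference of -0.07, and 4 were below the median gene. That median was -0.01 with no filter and -0.12 at a mean of at least 5 FPKM. Rps27rt, a retroposed copy of Rps27, was the most abundant at 1257 against 1452 FPKM, a ratio of 0.866 (0.841 to 0.891). Rps27 itself had 489 against 570 FPKM, a ratio of 0.859 (0.826 to 0.894). Such near-identical copies can exchange reads, so the split between them is uncertain. Rpl22l1 had 226 against 264 FPKM, a ratio of 0.856 (0.807 to 0.909), and made up 40.5% and 42.3% of the summed FPKM of itself and Rpl22. Rpl7l1 had 25.6 against 27.99 FPKM, a ratio of 0.915 (0.846 to 0.989).

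The other paralogues were level as deposited or too thinly covered to place. Rpl36al had 145 against 142 FPKM, a ratio of 1.02 (0.965 to 1.09), while Rpl36a, its partner, had 396 against 477 FPKM, a ratio of 0.829 (0.797 to 0.863). Rpl36al thus made up 26.8% of the pair in the Thy1.1- library and 22.9% in the Thy1.1+ library, and the intervals of the 2 ratios did not overlap. Its own difference of 0.03 turned below 0 when the median was centred or the 100 highest genes were left out. With the upper quartile it was 0.29. Rps27l, which p53 can induce, had 45.8 against 46.4 FPKM, a ratio of 0.988 (0.856 to 1.14). Rpl39l, best known from testis, had 1.35 against 0.714 FPKM from 17 and 9 reads, and its interval of 0.799 to 4.83 held 1. Rpl3l, a muscle form, and Rpl10l, a testis form, were under the filter, with 6 and 3 reads and with 3 and 3 reads.

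The group was set beside genes of related roles. The 20 translation factors and other TOP genes were spread, with 13 of 20 below 0, a median of -0.03 and none past 2-fold. Their highest difference was that of Eif3h, a subunit of initiation factor 3, at 0.28 (286 against 235 FPKM). Elongation factor genes were all lower as deposited, and above 0 with the upper quartile. Eef1g was lowest, at 506 against 594 FPKM, a ratio of 0.851 (0.828 to 0.875), followed by Eef1d with a ratio of 0.884 and Eef1b2 with 0.914. Eef2 had 1353 against 1447 FPKM, a ratio of 0.935, and Eef1a1, the highest gene of the table, had 8241 against 8768 FPKM, a ratio of 0.940. Mitochondrial ribosomal proteins, which serve the separate ribosome of that organelle, had 28 of 76 below 0 and a median of 0.06, or 0.03 above the median gene. Their values ran from -0.36 for Mrpl23 to 0.53 for Mrpl42. With the upper quartile, medians were 0.22 for the TOP genes, -0.04 from the median gene, and 0.31 for the mitochondrial genes, 0.05 from it.

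**Figure D4:**
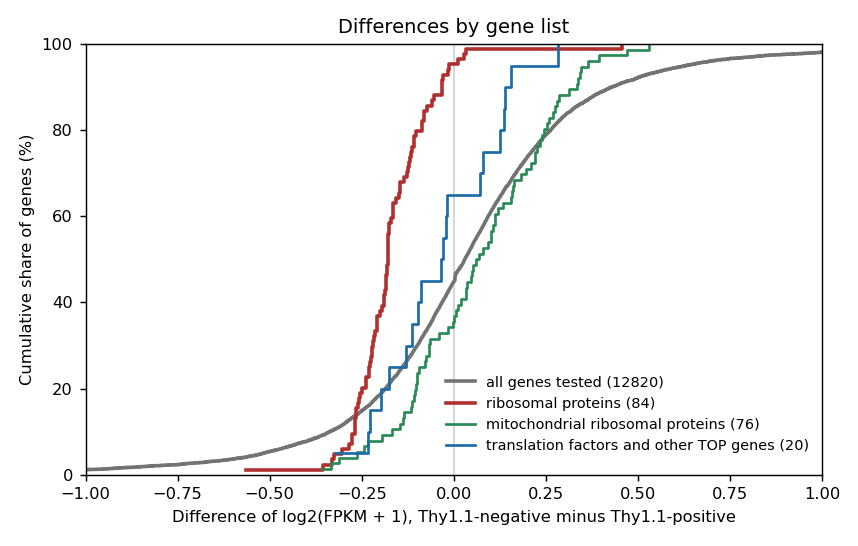
Cumulative share of genes, in percent, against the difference of log2(FPKM + 1), Thy1.1-negative minus Thy1.1-positive as deposited, for all 12820 genes tested, 84 ribosomal protein genes, 76 mitochondrial ribosomal protein genes and 20 translation factors and other TOP genes; the axis is drawn from -1 to 1. The curve of the ribosomal protein genes is steep around its median of -0.18, and the median of the mitochondrial genes is 0.06 against 0.03 for all genes.

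Genes that resemble ribosomal protein genes in level or size lay elsewhere. The 1035 other genes with a mean of at least 100 FPKM had a median difference of 0.01, with 48.4% below 0. With the members included, 51.8% of genes at that level lay below 0 and 56.1% below the median gene. The 209 other protein-coding genes at that level with an annotated mean transcript under 1 kb had a median of 0.09, with 36.4% below 0. These counts describe the libraries and are no test.

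Of 15 genes listed for the control of TOP mRNAs and ribosomal protein genes, 10 were below 0, 13 were below the median gene and none passed 2-fold. Their median was -0.09, at a distance of -0.12 to the median gene. Myc was lowest, at 26.1 against 41.8 FPKM, a ratio of 0.625 (0.573 to 0.681). Gabpa, which encodes a factor that binds many ribosomal protein promoters, was highest, at 50.9 against 41.4 FPKM, a ratio of 1.23 (1.14 to 1.32). Larp1 had 74.4 against 89.1 FPKM, a ratio of 0.836 (0.808 to 0.864). Of 13 measured chaperones and assembly factors of ribosomal proteins, 5 were below 0, with a median of 0.005. Tsr2, which escorts Rps26, was lowest, at 11.9 against 15.1 FPKM, and Heatr3, which handles Rpl5, highest, at 17.96 against 14.6 FPKM. Myc was lower as deposited in the library with the higher proliferation markers; the part of either in the ribosomal protein values was not tested.

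Start-site sequence was compared because the members lay close together. RefSeq promoters on GRCm38.p6 were matched by symbol for 66 of the 86 members, with 78 annotated starts. Each holds 250 bases before to 50 after the start. Within 35 bases before to 15 after the start, on the coding strand, a run of at least 8 bases of C and T that opens with C was found in 46.2% of member starts and 16.2% of all 32851 starts. The word CTTTC occurred there in 30.8% against 6.83%; it can be part of such a run. Over the full window and both strands, CCGGAAG, the core bound by Gabpa, occurred in 34.6% of member starts and 8.86% of all. AAGATGGC, bound by Yy1, occurred in 11.5% against 2.75%, and TATAAA in 8.97% against 13.6%. Against expressed genes the contrasts differed. Counted per gene, CCGGAAG occurred in 39.4% of the 66 members and 22.1% of 8461 other protein-coding genes tested, and AAGATGGC in 10.6% and 5.8%. TATAAA turned round, with 10.6% of members and 7.95% of the others, while runs of at least 8 stood at 50.0% and 19.8%.

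The following windows show the variety of these start regions at the low end, the middle and the high end of the group. Each is 50 bases on the coding strand, from 35 before the annotated start, and capitals mark its longest run of C and T that opens with C.
Rpl12 (chr2:32961677-32961726, plus strand), lowest difference: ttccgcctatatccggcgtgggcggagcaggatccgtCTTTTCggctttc
Rps15a (chr7:118116133-118116182, minus strand), second lowest: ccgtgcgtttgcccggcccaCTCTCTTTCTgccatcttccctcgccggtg
Rpl13 (chr8:123102315-123102364, plus strand), next lowest: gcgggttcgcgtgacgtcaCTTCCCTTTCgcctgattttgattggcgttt
Rpl5 (chr5:107900493-107900542, plus strand), 5S partner: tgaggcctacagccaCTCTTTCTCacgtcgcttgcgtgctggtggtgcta
Rplp2 (chr7:141447616-141447665, plus strand), stalk, near the median: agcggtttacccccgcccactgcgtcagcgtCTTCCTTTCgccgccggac
Rpl13a (chr7:45128731-45128780, minus strand), highest level: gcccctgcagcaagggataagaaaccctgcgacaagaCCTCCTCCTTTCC
Fau (chr19:6057912-6057961, plus strand), longest run shown: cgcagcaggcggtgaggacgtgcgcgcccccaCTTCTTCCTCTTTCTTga
Rps12 (chr10:23787195-23787244, minus strand), highest core difference: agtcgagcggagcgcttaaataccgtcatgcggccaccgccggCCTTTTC
Rpsa (chr9:120127731-120127780, plus strand), next highest: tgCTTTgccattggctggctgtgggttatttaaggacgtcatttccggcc
Rpl22 (chr4:152325691-152325740, plus strand), its start with the longer run: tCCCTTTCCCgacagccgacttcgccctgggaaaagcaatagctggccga
Rpl22l1 (chr3:28805473-28805522, plus strand), its paralogue: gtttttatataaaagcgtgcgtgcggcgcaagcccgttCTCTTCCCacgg

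Of the windows shown, those of the lowest gene Rpl12 and the highest core genes Rps12 and Rpsa hold runs under 8. Each of these windows ends in C and T bases, and runs were counted only up to that end. The longest run of Rps12 reaches it, so its full length is not known. Over the 58 core genes with a promoter entry, the 30 with a run of at least 8 had a median difference of -0.18, and the 28 without had one of -0.18. The 24 with CCGGAAG had a median of -0.18 and the 34 without one of -0.18. A match is a description of letters near an annotated start, which can lie some bases from the start used in these cells.

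Many ribosomal protein genes carry small nucleolar RNA (snoRNA) genes in their introns. In the annotation, 30 of the 78 core genes contain at least 1 snoRNA gene on their strand. Their median difference was -0.18, from -0.56 for Rpl12 to 0.03 for Rps12. The 48 without had a median of -0.18, from -0.36 for Rps15a to -0.01 for Rpl7.

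Mice carry many retroposed copies of these genes, and 258 further rows of the table are such copies by symbol or type. The annotation types 6 of them as protein-coding, Rps12-ps3 included. Of the 258 rows, 79 were at 0 in both libraries and 42 had a mean of at least 1 FPKM. The summed level of all 258 rows was 291 against 311 FPKM, a small quantity beside the 72889 against 82251 FPKM of the 84 members. Of the 42, 26 were below 0, with a median of -0.09, and 1 was 2-fold lower. Rpl34-ps1 was highest, at 76.2 against 77.8 FPKM, a ratio of 0.980 (0.865 to 1.11), followed by Rps12-ps3 at 31.8 against 28.8 FPKM. Rps16-ps2 and Rps13-ps1 had ratios of 1.01 and 1.05, and both intervals held 1. Reads that fit both a gene and its copies can be lost or split in counting, so levels of genes with many copies, such as Rps12 with 22 named copies and Rpl31 with 21, are uncertain.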

How the data were processed

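The file deposited by the authors holds FPKM for each Ensembl gene in both libraries. Its column with P was taken as Thy1.1+ and that with N as Thy1.1-. Libraries were made from 3 µg of total RNA, per the labels' protocols. Per the submitters' processing notes, the build was mm9 and the tools were HTSeq 0.6.1, TopHat2 2.0.12 and Bowtie2 2.2.3; the sources used here give no settings, strand use or filters. Symbols, types and transcript lengths came from GENCODE M21, on another build than mm9, and were found for 40254 of 41592 rows.

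FPKM allows no count model. Whole reads were recovered from the ratio of the libraries' values, for 23442 genes above 0 in both. That ratio, divided by 1.003, was written as a ratio of whole numbers within 1e-10. Nearly any value can be written so, and the number of genes is therefore no check of the recovery. Totals came from 4018 of 6829 genes with a single annotated length, and each gene's multiple from the whole length nearest its annotated mean. Implied lengths were 0.675 to 2.07 times the annotated mean over members, and 34 of 86 members needed a multiple above 1, so their read numbers rest on that choice. Recovered reads summed to 100.1% of both totals. The recovery was also run on simulated data whose gene lengths were the rounded annotated means. Those same means guide the choice of multiple, so the simulation could not test that choice. Ratios carry exact Clopper-Pearson intervals at 95%.

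Differences are of log2(FPKM + 1) at a mean of at least 1 FPKM; the pseudocount understates changes of low genes. A gene was called at 2-fold. Named are the 5 lowest and highest differences, the 5 highest and lowest levels, paralogues, the role lists, the extremes of other lists and the 5 highest copies. Some genes that this rule selects are not reported here. Rps27, Rpl36a, Larp1 and the elongation factors were named after their values were seen. Members and lists were chosen with earlier results of these data known. Python 3.11.15, pandas 2.3.3 and scipy 1.17.1 were used. Alternatives were other pseudocounts, filters, fold rules and 4 rescalings.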

Additional observations from a re-analysis of the deposited data

How the results depend on the processing

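No paired analysis was possible because each population is 1 library, and no replicate could be left out. Pseudocounts of 0.1 and 5, no filter, and a mean of at least 5 FPKM left 79 or 80 members below 0, core genes alone left 76 of 78, and the group's median stayed at -0.18 in these and in members of at least 100 FPKM. Scaling by the upper quartile left 15 below 0 and gave medians of 0.0765 for the group, 0.0747 for the 40S core, 0.0766 for the 60S core, 0.18 for paralogues, 0.22 for translation factors and other TOP genes and 0.31 for mitochondrial ribosomal proteins. Without the 100 highest genes the group's median was -0.22 and that of the 40S core -0.22, and with the median centred the 40S core was at -0.22. Counts of 2-fold genes, 247 higher and 148 lower, were 402 and 293 with a pseudocount of 0.1, 72 and 19 with 5, 107 and 60 at a mean of at least 5 FPKM, 412 and 90 with the upper quartile, 745 and 493 at 1.5-fold and 31 and 9 at 4-fold; no member was past 2-fold under the pseudocounts, filters and scalings tried. The group's share, Thy1.1- library first, was 12.2% and 13.9% with retroposed copies, 12.7% and 14.4% of protein-coding rows, and 5.65% and 6.36% of reads. Depth limits Rpl24, Rpl39l, Rpl3l and Rpl10l, whose counting intervals are wide.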
